A study of Mus musculus with 87 samples.

Results

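RNA of mouse embryonic stem cells that had lost 6 non-core subunits of Polycomb repressive complex 2 (PRC2) was compared with RNA of cells that had lost 5 of them, so that the lines differed by the knockout of Epop. The comparison rests on 6 of the 87 samples of the series: 3 RNA libraries of the Pcl1-3 + Jarid2 + Aebp2 + Epop KO, called 6-KO, and 3 of the Pcl1-3 + Jarid2 + Aebp2 KO, called 5-KO. The 6 libraries were chosen by their labels alone, and every Ensembl gene ID with enough counts was examined. Both groups lacked PCL1, PCL2, PCL3, JARID2 and AEBP2, so neither is a wild-type (WT) control and the comparison shows Epop loss only in cells that had already lost those proteins. All cells were grown on gelatin in 2i medium, which holds them in a naive pluripotent state. The strain label differed with every genotype, its last digit rising by 1 at a time: 129B6F1 for WT, 129B6F2 for Suz12 KO, 129B6F3 for Pcl1-3 KO, 129B6F4 for Pcl1-3 + Epop KO, 129B6F5 for Jarid2 + Aebp2 KO, 129B6F6 for Pcl1-3 + Jarid2 KO, 129B6F7 for 5-KO and 129B6F8 for 6-KO. Such a run may be a fill of the label sheet and not separate strains; as labelled, strain and genotype cannot be told apart in any comparison below. Nothing in the labels tells whether a genotype was 1 clone or whether its libraries were separate cultures, and a p-value here speaks only of library-to-library spread, possibly technical in origin.

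PRC2 methylates lysine 27 of histone H3 and is known for keeping developmental genes silent in embryonic stem cells. Its core, built on SUZ12, EED and an EZH enzyme, occurs in alternative assemblies: the Polycomb-like family (PCL1, PCL2 and PCL3) can bind unmethylated CpG-rich DNA and share their assembly with EPOP, whereas JARID2 and AEBP2 belong to the other. EPOP (elongin BC and Polycomb repressive complex 2-associated protein) also binds Elongin B and Elongin C, which act in transcript elongation and protein degradation.

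The deposited counts carry versioned Ensembl IDs, and 0 of 55450 IDs were paired with a symbol in the files or in the RefSeq table used here. Results are therefore given by ID and by group of IDs, the count of Epop itself was not checked in either genotype, and marker genes of stem cells or of other cell types were not examined. In the RefSeq table (GRCm38.p6, the assembly behind mm10) Epop lies on chromosome 11 from 97627387 to 97629716. Among the deposited peak lists, a PCL2 peak of 736 bp (chromosome 11, 97629541 to 97630276) overlapped 176 bp at the higher end of that interval, and 0 SUZ12 and 0 JARID2 peaks lay within 1 kb of the gene.

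Total counts of the 6 libraries ran from 11454093 to 14442093, and their scaling factors from 0.946 to 1.01. Of the 55450 IDs, 24056 had no count in any of the 24 RNA libraries of the series, 16744 had counts but did not pass the filter on low counts, and 14650 were tested. An ID reached 1 CPM (a count scaled to the library total) in 12535 ± 137 cases in 6-KO and in 12228 ± 228 in 5-KO (SD, n = 3). On the second principal component of log2 CPM over the 24 libraries, which held 20.9% of the variance, the 6-KO libraries lay at -55, -61.7 and -71 and the 5-KO ones at -6, -20 and -29.9. All other libraries lay between -29.6 and 49.2, so 6-KO stood apart from every other genotype on that axis. Replicate 3 of each group lay farthest from the other replicates of its group, with a Pearson r of log2 CPM of 0.9775 between 6-KO replicates 1 and 3 and 0.9795 between 5-KO replicates 1 and 3.

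From 5-KO to 6-KO 848 IDs rose and 799 fell (edgeR quasi-likelihood test, Benjamini-Hochberg adjusted p under 0.05). Thus 11.2% of the 14650 tested IDs passed the test in one direction or the other (5.79% rose and 5.45% fell). Here and below, a change with Epop loss in 5-KO means this difference between 6-KO and 5-KO. An effect of Epop cannot be told apart in it from strain as labelled or from a difference between clones. The numbers in the 2 directions were alike, but the rises were larger. Risen IDs had a median log2 fold change of 1.38 and fallen IDs one of -0.74. The 2 sets differed in level, with medians of 2.91 CPM (risen) and 31.9 CPM (fallen) in 5-KO. The part of level in the sizes of change was not tested. More than 2-fold changes were seen in 556 risen and 270 fallen IDs, more than 4-fold changes in 251 and 82, and more than 10-fold changes in 69 and 15. Of the 848 risen IDs, 830 had all 6-KO libraries above all 5-KO libraries, and 781 of the 799 fallen IDs had them all below. Over all tested IDs the 3 and 3 libraries did not overlap for 26.5%, higher in 6-KO for 13.1% and lower for 13.4%.

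The number of called IDs differed between fits. Libraries with the same replicate number deviated together, and with that number as a replicate block 1521 IDs rose and 1528 fell (3049 in all), and all 1647 IDs called without it were among them. Fitted on the 6 libraries alone, 563 rose and 374 fell (937 in all, 852 of them among the 1647), and the call of a fold above 1.5 (glmTreat) left 293 and 149 (442 in all). Without 6-KO replicate 3 the total was 1088, and without 5-KO replicate 1 it was 1085.

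**Figure D1:**
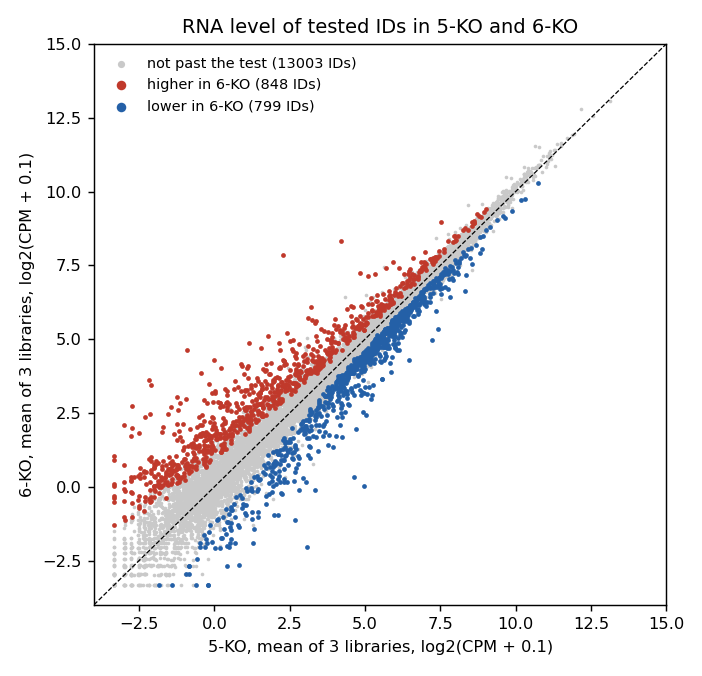
Mean RNA level of each of 14650 tested IDs in 5-KO (x axis) and 6-KO (y axis), as log2 of CPM plus 0.1, with 3 libraries each and the dashed line at equal levels. The 848 risen IDs (red) spread far above the line at low levels, while the 799 fallen IDs (blue) lie mostly at middle and high levels.

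Risen and fallen IDs came from different ranges of expression. The 848 risen IDs had a median of 2.91 CPM in 5-KO and 9.08 CPM in 6-KO. In WT their median was 3.19 CPM, and in the knockouts other than Suz12 KO and 6-KO it was 2.91 to 3.96 CPM. Suz12 KO, which lacks the core subunit, had a median of 9.1 CPM for the same IDs, close to the 6-KO value. The 799 fallen IDs had medians of 31.9 CPM in 5-KO and 19.2 CPM in 6-KO, against 32.3 CPM in WT, 25.4 CPM in Suz12 KO and 29 to 36 CPM in the others. These IDs were chosen on 6-KO and 5-KO libraries, so those 2 medians describe the choice. The levels in the 6 other genotypes were not compared in it, but their libraries shared the filter and the estimate of the spread.

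WT libraries, which are not in the comparison, sorted the IDs by their normal level. Among 1172 tested IDs under 0.5 CPM in WT, 153 rose (13.1%) and 4 fell (0.341%). From 0.5 to 5 CPM, 335 of 3431 rose (9.76%) and 104 fell (3.03%). From 5 to 50 CPM, 256 of 5583 rose (4.59%) and 402 fell (7.2%), and at 50 CPM or more 104 of 4464 rose (2.33%) and 289 fell (6.47%). Rises outnumbered falls in the classes under 5 CPM, and falls outnumbered rises in those above. An ID nearly silent in WT could pass the filter through a genotype in which it is high; with no filter on low counts, 244 of 17793 such IDs rose (1.37%) and 17 fell (0.0955%), against 3.39% and 3.17% of all 31394 IDs with counts. The share of risen IDs among the nearly silent was thus above the overall share with the filter and below it without, while rises outnumbered falls in both.

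The clearest switches were defined by level. From under 0.5 CPM in 5-KO to at least 2 CPM in 6-KO, with no overlap of libraries, 32 IDs were switched on, to a median of 3.96 CPM and at most 24.9 CPM. All 32 passed the test, which is largely set by the choice, because the rule used the libraries that were tested. The median of the 32 was 0.309 CPM in WT, 0.339 CPM in Pcl1-3 + Epop KO and 0.698 CPM in Pcl1-3 + Jarid2 KO, but 3.28 CPM in Suz12 KO. There 26 of the 32 rose and 0 fell (20.7% and 18.3% of all tested IDs did). These shares are over IDs of all levels, whereas the 32 were chosen as low in 5-KO. Fewer tested IDs were under 0.5 CPM in Suz12 KO (502) than in 5-KO (1282), and the share that rose among IDs as low in 5-KO was not computed. By the reverse rule 10 IDs were switched off, from a median of 2.64 CPM in 5-KO to 0.377 CPM in 6-KO. All 10 were at 1 CPM or more in WT (median 5.38 CPM) and in every knockout other than 6-KO and Suz12 KO, where 9 were. In Suz12 KO, 2 of these 10 rose and 4 fell, near those same shares for risen IDs and from few IDs in all.

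The genotypes outside the comparison also show which of the 2 lines departed. Of the 848 risen IDs, 237 (27.9%) had all 6-KO libraries above all 21 other RNA libraries, and 31 (3.66%) had all 5-KO libraries below all 21 others. Leaving the Suz12 KO libraries aside, the 6-KO libraries were above all 18 others for 482. Of the 799 fallen IDs, the 6-KO libraries were below all 21 others for 331 (41.4%) and below all but Suz12 KO for 481, while the 5-KO libraries were above all others for 23 (2.88%). For the rule without Suz12 KO the share over all tested IDs was not computed, so 482 and 481 have no background here. The choice of these IDs had also set 6-KO apart from 5-KO beforehand. Over all 14650 IDs 6-KO stood above the rest for 393 (2.68%) and below for 461 (3.15%), 5-KO for 48 (0.328%) and 44 (0.3%), and Suz12 KO for 1729 (11.8%) and 1286 (8.78%). The WT mean lay below both knockouts for 422 risen IDs, between them for 362 and above both for 64. Of fallen IDs it lay above both for 439, between them for 319 and below both for 41.

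**Figure D2:**
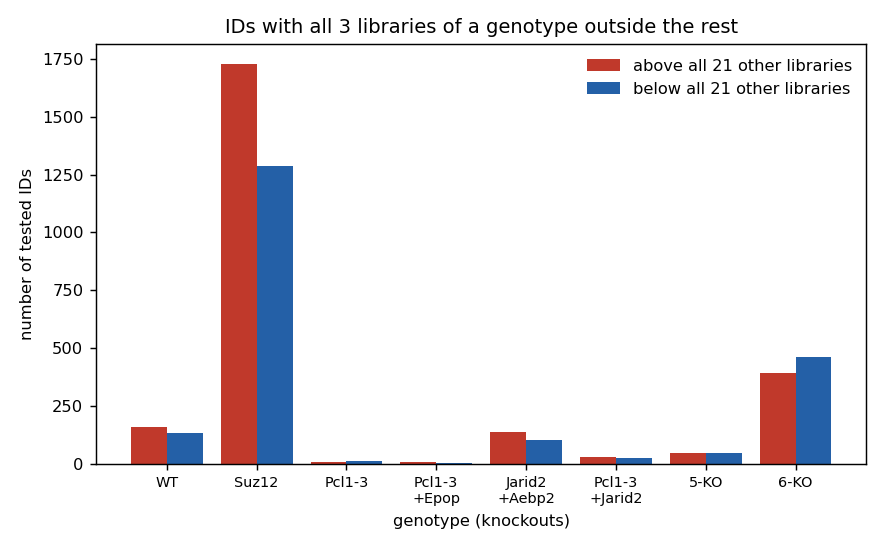
Number of the 14650 tested IDs for which all 3 libraries of a genotype lay above (red) or below (blue) all 21 other RNA libraries, by genotype. After Suz12 KO (1729 and 1286 IDs), 6-KO has the highest bars (393 and 461), while 5-KO has 48 and 44.

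The loss of SUZ12, which removes the core of the complex, gave a direction for each ID from libraries that the comparison of Epop loss does not use. In Suz12 KO against WT 20.7% of tested IDs rose and 18.3% fell. Of the 848 IDs risen with Epop loss 528 rose in Suz12 KO (62.3%; 17.4% of the 3038 risen there), 46 fell and 274 were not called. Of the 799 fallen IDs 357 fell in Suz12 KO (44.7%; 13.3% of the 2683 fallen there), 97 rose and 345 were not called. Among the 13003 IDs not called for Epop loss, 18.6% rose and 17.5% fell in Suz12 KO, near the background. With the replicate block, 911 IDs rose and 705 fell in both (59.9% of risen and 46.1% of fallen IDs). At a fold of 1.5 the numbers were 176 and 47 (60.1% and 31.5%), and with only the genotypes compared 387 and 184 (72.6% and 49.2%).

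The share of IDs that changed with Epop loss varied with the size of the Suz12 effect. Of 1103 IDs that rose more than 4-fold in Suz12 KO, 263 rose with Epop loss (23.8%) and 13 fell (1.18%), with a median log2 fold change of 0.84. Of 915 that rose 2- to 4-fold, 17.9% rose and 4.48% fell (median 0.31), and of 1020 that rose by less, 9.9% rose and 4.22% fell (median 0.08). The 8929 IDs not called in Suz12 KO gave 3.07% and 3.86% (median 0). Of 2084 IDs that fell less than 2-fold in Suz12 KO, 1.49% rose and 11.4% fell (median -0.12), and of 599 that fell more than 2-fold, 2.5% rose and 19.9% fell (median -0.3). Over all tested IDs the median was 0. The r between the 2 sets of log2 fold changes was 0.375 (Spearman rho 0.303) across 14650 IDs, which are not independent replicates. The Suz12 classes were not matched for level, and low IDs could pass the filter through Suz12 KO. Of IDs under 0.5 CPM in WT 13.1% rose and 0.341% fell with Epop loss, and at 50 CPM or more 2.33% rose and 6.47% fell. The part of level in the differences between Suz12 classes was not tested.

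**Figure D3:**
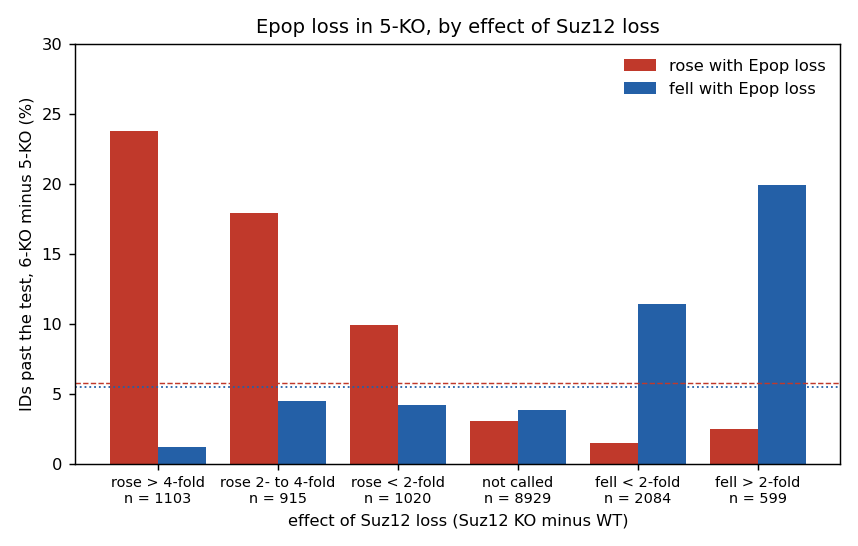
Share of IDs that rose (red) or fell (blue) with Epop loss in 5-KO, in classes of the effect of Suz12 loss, with the number of IDs under each class; the dashed and dotted lines give the shares over all tested IDs (5.79% and 5.45%). The share of risen IDs is 23.8% in the leftmost class and 2.5% in the rightmost, and the share of fallen IDs is 1.18% and 19.9%. The steps between are not all in one direction, and the classes were not matched for RNA level.

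A group of 272 IDs was nearly silent in WT and gained in Suz12 KO (under 0.5 CPM in WT, at least 2 CPM in Suz12 KO and no overlap of libraries). Their median level was 0.27 CPM in WT and 2.98 CPM in Suz12 KO. It was 0.293 to 0.391 CPM in 4 partial knockouts and 0.266 CPM in 5-KO, against 0.565 CPM in 6-KO. By library the medians were 0.214, 0.216 and 0.415 CPM in 5-KO replicates 1, 2 and 3, and 0.449, 0.473 and 0.584 CPM in the 6-KO ones. The 2 groups did not overlap, but 5-KO replicate 3 lay near 6-KO replicate 1. Replicate 3 had the highest median in each of the 6 partial knockouts, and that of Pcl1-3 + Jarid2 KO, at 0.465 CPM, lay within the 6-KO range; the part of this in the result was not tested. The number of these IDs at 1 CPM or more was 13, 18 and 40 in 5-KO and 76, 85 and 93 in the 6-KO libraries, against 269, 272 and 271 in Suz12 KO. With Epop loss 51 of the 272 rose (18.8%), 2 fell (0.735%) and 219 were not called (median log2 fold change 0.82). Of all tested IDs 5.79% rose and 5.45% fell. Of the 1172 tested IDs under 0.5 CPM in WT, which include the 272, 13.1% rose and 0.341% fell (median 0.6). A response beyond that of other nearly silent IDs was not tested. The IDs were chosen for a low level in WT and a high one in Suz12 KO, and low IDs could pass the filter through Suz12 KO alone, so their lower level in other genotypes than in Suz12 KO is largely set by that choice.

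Other losses in the series that share no library with the comparison were set beside it. With Jarid2 loss added to Pcl1-3 loss, 3.71% of tested IDs rose and 2.56% fell (6.27% in all). Of the 543 risen, 160 rose with Epop loss (29.5%) and 20 fell, and of the 375 fallen, 109 fell with Epop loss (29.1%) and 20 rose. The 160 made up 18.9% of the 848 and the 109 made up 13.6% of the 799. For loss of Jarid2 and Aebp2 together from WT (2.26% risen, 2.13% fallen, 4.39% in all) the directions were mixed. Of 331 risen IDs 39 rose (11.8%) and 35 fell (10.6%) with Epop loss. Of 312 fallen IDs 41 rose (13.1%) and 23 fell (7.37%). For Pcl1-3 loss from WT (4.35% risen, 4.35% fallen, 8.7% in all), 55 of 637 risen IDs rose (8.63%) and 55 fell (8.63%) with Epop loss. Of 637 fallen IDs 103 rose (16.2%) and 58 fell (9.11%). Over all tested IDs 5.79% rose and 5.45% fell with Epop loss. For the losses from WT every share lay above these, in both directions.

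The same gene was also lost from cells with JARID2 and AEBP2 present. Pcl1-3 + Epop KO against Pcl1-3 KO asks for the effect of Epop loss there, from 6 libraries that the 6-KO and 5-KO comparison does not hold. The edgeR test called 1 ID (0.00683% of tested IDs), which rose from 0.86 to 7.52 CPM, and 0 fell, with 210 IDs at an unadjusted p under 0.05. DESeq2 called 3, the replicate block 2 and the fit with no filter on low counts 20. The test at a fold of 1.5 and the fit of only these 2 genotypes called 0, as did the fits without Pcl1-3 + Epop KO replicate 3 and without Pcl1-3 KO replicate 1, 2 or 3. The median standard error of a log2 fold change was 0.196 here and 0.198 for Epop loss in 5-KO. The spread of each ID was estimated over all 24 libraries together, so these values are alike by construction and do not compare the precision of the 2 comparisons. Replicates 1 and 3 of Pcl1-3 + Epop KO had the lowest Pearson r of log2 CPM within a genotype, 0.9569. The spread of log2 CPM between libraries of a genotype was wider in Pcl1-3 + Epop KO (median SD 0.284) than in Pcl1-3 KO (0.197), 6-KO (0.246) and 5-KO (0.215).

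Among the 848 IDs risen in the 5-KO background, the median log2 fold change of Epop loss in the Pcl1-3 background was 0.06, and 535 (63.1%) were higher without Epop. Among the 799 fallen it was -0.06, and 32.8% were higher. Among the IDs not called it was 0.01, and 52.9% were higher. The signs thus leaned the same way. The size was far below that in 5-KO, but the IDs were called on the 5-KO comparison, so the contrast in size is partly set by that choice. By level, the median in the Pcl1-3 background was 0.11 for IDs under 0.5 CPM in WT and -0.01 for those at 50 CPM or more. The parts of level and of single libraries in this lean were not tested. Across 14650 IDs, which are not independent replicates, r between the 2 Epop effects was 0.137 (Spearman rho 0.179).

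The difference between the 2 Epop effects was tested itself, as an interaction over the 4 genotypes. It passed for 306 IDs (2.09% of tested IDs; edgeR quasi-likelihood test, Benjamini-Hochberg adjustment), with the effect higher in the 5-KO background for 149 (1.02%) and lower for 157 (1.07%). Of the 149, 144 had risen with Epop loss in 5-KO, with a median log2 fold change of 1.9 over the 149, against -0.05 in the Pcl1-3 knockout. Of the 157, 154 had fallen, with medians of -1.38 and -0.02. These IDs were chosen for a difference between the 2 effects, so the contrast of the medians describes the choice. The remaining 8 IDs were not called in 5-KO. For 1349 of the 1647 IDs called in 5-KO the difference between backgrounds did not pass, so for these a difference is not shown. The total was 914 with the replicate block, 500 with DESeq2, 699 with no filter on low counts, 89 on the 12 libraries of the 4 genotypes alone, 194 without 6-KO replicate 2 and 193 without Pcl1-3 KO replicate 3.

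**Figure D4:**
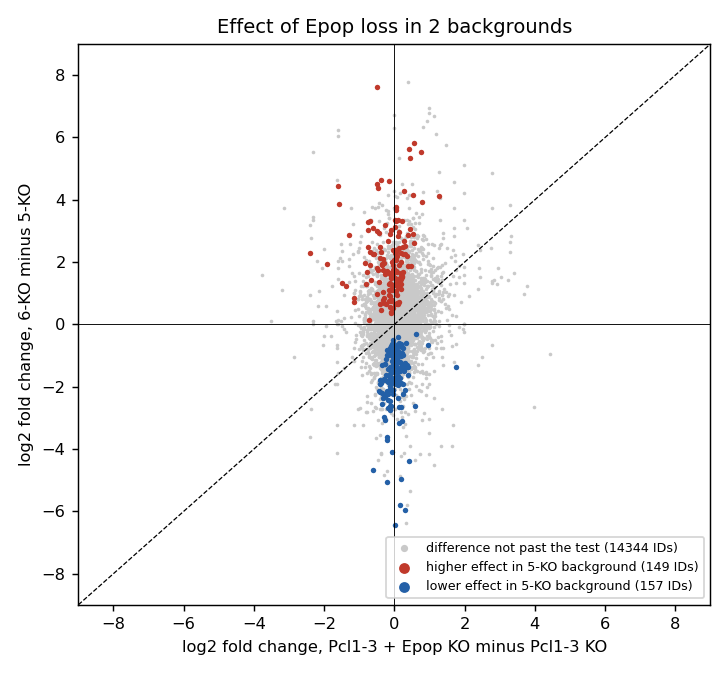
Log2 fold change of Epop loss in the Pcl1-3 knockout (x axis) and in 5-KO (y axis) for 14650 IDs; red and blue mark the 149 and 157 IDs whose difference passed the test, and the dashed line marks equal effects. The coloured IDs lie away from the dashed line by the choice that coloured them, and their median x values are -0.05 and -0.02.

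Nearly all IDs with a difference between backgrounds were among those called for Epop loss in 5-KO (144 of 149 and 154 of 157). Their directions in Suz12 KO are thus part of the overlap given above and not a further result. Of the 149 IDs with the higher effect in the 5-KO background 114 rose and 7 fell in Suz12 KO. Of the 157 with the lower effect 83 fell and 22 rose, while 20.7% of all tested IDs rose and 18.3% fell there. Over the 1103 IDs that rose more than 4-fold in Suz12 KO, the median log2 fold change was 0.84 for Epop loss in 5-KO and 0.05 in the Pcl1-3 knockout. Over the 272 gained IDs it was 0.82 and 0.07, and over the 1172 IDs under 0.5 CPM in WT 0.6 and 0.11.

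Among IDs past the test with a mean of 1 CPM or more in either group and libraries that did not overlap (787 risen and 760 fallen), the 12 with the highest log2 fold change ran from 5.53 to 7.78. For 2 of them, with 0 counts in 5-KO, the fitted value and so the rank depend on the prior count. Their levels reached at most 4.73 CPM in 5-KO and 1.57 to 229 CPM in 6-KO. Of these 12, 9 were under 0.5 CPM in WT, 11 rose and 0 fell in Suz12 KO, and 4 passed the test of the difference between backgrounds. The 12 with the lowest log2 fold change ran from -5.79 to -3.1, from 1.23 to 31.1 CPM in 5-KO to 1.17 CPM or less in 6-KO. For all 12 the 6-KO libraries lay below the 21 others, 9 passed the test of the difference, and in Suz12 KO 4 fell and 2 rose. Of all 14650 tested IDs, 1172 were under 0.5 CPM in WT and 2.09% passed the test of the difference. In Suz12 KO 20.7% rose and 18.3% fell, and the 6-KO libraries lay below the 21 others for 3.15%. Both sets of 12 were chosen for an extreme change from 5-KO to 6-KO. That change is part of the tested difference, so passing it and the place of 6-KO are partly set by the choice.

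The highest fitted log2 fold change (7.78 in edgeR, 7.17 in DESeq2, neither a bound) belonged to ENSMUSG00000090693.4, with 0 counts in all 5-KO libraries and 1.89, 2.52 and 1.5 CPM (21, 32 and 18 counts) in the 6-KO ones. Its 6-KO mean of 1.97 ± 0.516 CPM (SD, n = 3) was 26.2-fold the 0.0751 CPM that 3 counts over the 5-KO group allow. That fold takes the 6-KO mean as exact and is not a lower bound. The exact 95% counting interval of the ratio of 5-KO to 6-KO counts ended at 0.0478. The ID passed the test for Epop loss in 5-KO (edgeR adjusted p = 6.81e-06). It was at 0.138 CPM in WT, 0.917 CPM in Suz12 KO and 0.124 CPM or less in the other knockouts, so the 6-KO libraries were the highest of the 24. The Epop effect did not pass the test of a difference between backgrounds for this ID (edgeR adjusted p = 0.14), with 1 count each over the 3 libraries of Pcl1-3 KO and of Pcl1-3 + Epop KO.

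ENSMUSG00000009097.10 likewise had 0 counts in the 5-KO libraries and 1.26, 1.81 and 2.25 CPM (14, 23 and 27 counts) in the 6-KO ones. The mean of 1.77 ± 0.499 CPM (SD, n = 3) was 23.6-fold the same floor (edgeR adjusted p = 0.000323), which is again not a lower bound. The exact counting interval of the ratio of 5-KO to 6-KO counts ended at 0.0532. In Suz12 KO this ID had 1.14, 1.62 and 4.14 CPM against 0.13 CPM in WT (edgeR adjusted p = 0.00039), so its Suz12 KO and 6-KO libraries overlapped. In Pcl1-3 KO and Pcl1-3 + Epop KO it had 0.208 and 0.141 CPM, and the Epop effect differed between backgrounds (edgeR adjusted p = 0.0187).

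The lowest log2 fold change belonged to ENSMUSG00000023039.17, with 4.99, 8 and 11.9 CPM in 5-KO and 0.269, 0.158 and 0 CPM (3, 2 and 0 counts) in the 6-KO libraries. It fell by 5.79 on the log2 scale (SE 0.95, edgeR adjusted p = 0.000323), and the ratio of counts was 58.1 (exact 95% counting interval 24.6 to 180). Its means in the 7 other genotypes were 6.74 to 13.2 CPM, and the lowest library outside 6-KO had 3.78 CPM. In Suz12 KO it had 11.7 ± 7.65 CPM against 8.13 ± 3.29 in WT (SD, n = 3; edgeR adjusted p = 0.474), so it fell with the sixth non-core loss but did not pass the test for loss of the core.

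ENSMUSG00000003657.9 had 35.3, 28.5 and 29.5 CPM in 5-KO and 0.988, 1.1 and 0.668 CPM in the 6-KO libraries. It fell by 5.06 on the log2 scale (SE 0.31, edgeR adjusted p = 2.19e-09), a ratio of 33.8 (exact 95% counting interval 24 to 49.4). In WT it had 40.7 CPM, in Pcl1-3 + Epop KO 32.2 CPM and in Jarid2 + Aebp2 KO 52 CPM, and in Suz12 KO 6.15, 8.22 and 11.9 CPM. Every Suz12 KO library was thus below the 5-KO libraries and above the 6-KO ones. For this ID the Epop effect differed between backgrounds by -4.87 on the log2 scale (edgeR adjusted p = 3.04e-07).

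**Figure D5:**
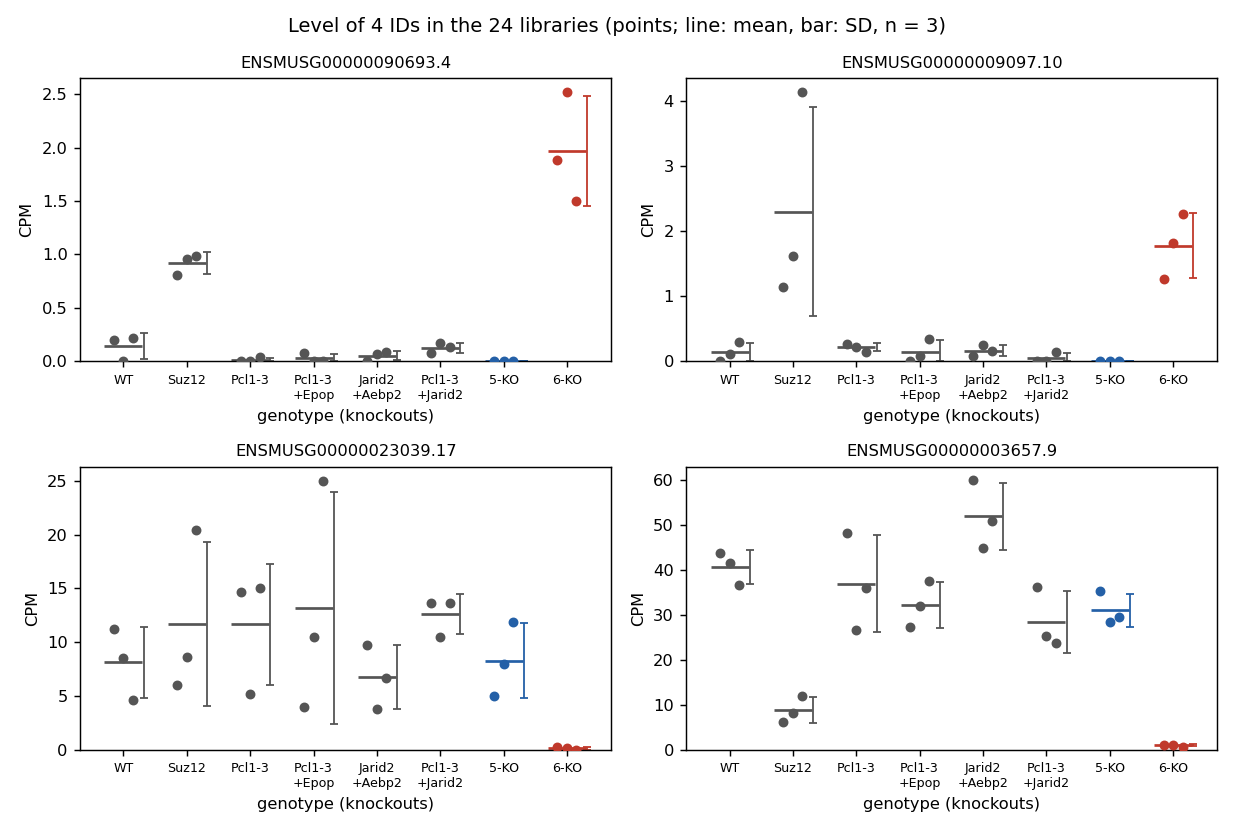
CPM of 4 IDs in each of the 24 RNA libraries (points), with the mean (line) and SD (bar, ended at 0 where longer) of 3 libraries per genotype; red is 6-KO and blue 5-KO. The upper 2 IDs have 0 counts in 5-KO and 1.26 to 2.52 CPM in the 6-KO libraries, and the lower 2 drop to 1.1 CPM or less in the 6-KO libraries.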

How the data were processed

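RNA of 8 genotypes was measured in 24 libraries (3 each), prepared from total RNA with a TruSeq kit per the labels' protocols. Read counts for each Ensembl ID, in whole numbers, were deposited by the authors. STAR, HTSeq and mm10 stand in the submitters' processing notes without versions. Whether counting used strand is not given in the labels or headers, so reads of overlapping or antisense genes, or of near-identical copies, may be shared. The deposited ChIP peak lists (positions called by the authors) served only for the Epop locus.

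The counts were fitted with edgeR 4.0.16 in R 4.3.3 (quasi-likelihood test, TMM scaling, filterByExpr defaults with a minimum count of 10 and total of 15), with 1 mean per genotype over all 24 libraries and Benjamini-Hochberg adjustment over 14650 IDs. The standard error is the log2 fold change divided by the square root of F. CPM uses the scaled totals. Fits were tested on simulated data. Intervals and the floor of 3 counts cover counting error only. Within each of the 8 genotypes, every pair of libraries differed by more than sampling noise (chi-square per ID of 5.9 or more, where noise alone gives about 1).

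Same-numbered libraries of the 2 groups deviated together. For Epop loss r was 0.278, 0.152 and 0.257 in 5-KO and 0.2 to 0.71 in the Pcl1-3 knockout. For Suz12 loss it was 0.15 to 0.254. The replicate number was thus read from the data as a possible pairing, and the labels give no shared day or batch. The main fit and its p-values did not use this pairing, which entered only as the replicate block among the alternatives. Alternatives were DESeq2 1.42.0 and its size factors, other filters, the replicate block, a fold of 1.5 (glmTreat), fewer genotypes and left-out libraries.

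The comparison, classes and rules were chosen with earlier results of these data known. The IDs named are 2 that rose and 2 that fell, with the highest and lowest log2 fold change among IDs past the test, a mean of 1 CPM or more in either group and libraries that did not overlap. Because 0 IDs could be paired with symbols, 30 planned gene lists, the marker checks, the targeted genes and the RNA of genes near peaks were not analysed here.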

Additional observations from a re-analysis of the deposited data

Results flagged for a closer look

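The effect of Epop loss differed between 5-KO and the Pcl1-3 knockout for 306 IDs by the test of the difference itself (edgeR quasi-likelihood, adjusted p under 0.05). Among the 4 IDs described above, the difference in log2 fold change was 8.12 for ENSMUSG00000009097.10 (SE 1.8, edgeR adjusted p = 0.0187), a fitted value that depends on the prior count because the 5-KO libraries had 0 counts. It was -5.96 for ENSMUSG00000023039.17 (SE 1.14, edgeR adjusted p = 0.00589) and -4.87 for ENSMUSG00000003657.9 (SE 0.38, edgeR adjusted p = 3.04e-07).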

How the results depend on the processing

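Called IDs for Epop loss in 5-KO numbered 3049 with the replicate block, 442 at a fold of 1.5 and 937 with only the genotypes compared, and 1085 to 2077 when 1 library was left out. The other alternatives stayed within 1.5 times. For Epop loss in the Pcl1-3 knockout, the counts were 20 with no filter on low counts, 2 with the replicate block, 3 with DESeq2, 0 at a fold of 1.5, with only the genotypes compared and with replicates 1 and 2 only (chosen after seeing the data), and 0 to 1 with 1 library left out. The difference between the Epop effects gave 699 with no filter, 914 with the replicate block, 101 at a fold of 1.5, 89 with only the genotypes compared, 500 with DESeq2 and 193 to 419 with 1 library left out. Suz12 loss gave 2197 at a fold of 1.5 and 4767 to 5187 with 1 library left out. IDs risen both with Epop loss and in Suz12 KO numbered 911 with the block, 176 at a fold of 1.5 and 355 to 552 with 1 library left out, and IDs fallen in both 705, 47 and 239 to 384, and 184 with only the genotypes compared. Switched-on IDs numbered 53 with replicates 1 and 2 only and 31 to 47 with 1 library left out, and switched-off IDs 10 to 14. The 4 IDs named kept their direction and call for Epop loss in 5-KO in 56 of 56 alternatives. For the difference between backgrounds 78 of 80 did; ENSMUSG00000023039.17 no longer passed with replicates 1 and 2 only (-4.43, edgeR adjusted p = 0.0907), and ENSMUSG00000090693.4 passed with DESeq2 (6.76, DESeq2 adjusted p = 0.0488). The cause of these changes was not tested. Alternatives on gene lists and on genes near peaks were not run, because IDs were not paired with symbols.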

Other observations

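For 31 risen and 23 fallen IDs the 5-KO libraries, not the 6-KO ones, stood apart from all others. The ID with the highest 6-KO level among the 12 highest log2 fold changes had 2.71, 3.6 and 7.88 CPM in 5-KO. In 6-KO it had 236, 223 and 228 CPM. Its means were 121 ± 9.64 CPM in WT, 276 ± 81.5 in Pcl1-3 KO, 380 ± 26.6 in Pcl1-3 + Jarid2 KO and 69 ± 29.5 in Jarid2 + Aebp2 KO (SD, n = 3). The 6-KO level of this ID, singled out after its values were seen, thus lay within the range of the other genotypes and the 5-KO level lay far below it.

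The ID that rose with Epop loss in the Pcl1-3 knockout (log2 fold change 3.03, edgeR adjusted p = 0.0212) had a log2 fold change of 1.51 in 5-KO, which did not pass (edgeR adjusted p = 0.0804).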
